A study of Rattus norvegicus with 12 samples.

Results

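Fatty acid synthesis was followed here through 6 genes: Srebf1, which encodes the transcription factor SREBP-1, and the enzyme genes Acly, Me1, Acaca, Fasn and Scd. They were taken as 6 of the 32622 rat Ensembl identifiers of a count table that carries no gene symbols. The names therefore rest on the list that defined the set, which gives ENSRNOG00000003463 as Srebf1, ENSRNOG00000016924 as Acly, ENSRNOG00000009715 as Me1, ENSRNOG00000034013 as Acaca, ENSRNOG00000045636 as Fasn and ENSRNOG00000013552 as Scd. All 6 passed the filter on low counts, which left 13215 identifiers for testing.

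The cells were fibro-adipogenic progenitors, mesenchymal cells of skeletal muscle that can become fat cells or fibroblasts, cultured from the soleus of rats (Rattus norvegicus). They came from control rats (C), from rats hindlimb-suspended for 7 days (HS7) and from rats suspended for 14 days (HS14), a procedure that takes the weight off the hind legs. Poly(A) RNA was sequenced on day 0, from subconfluent cultures, and on day 3 of adipogenic induction with insulin (1 µM), dexamethasone (1 µM) and 3-isobutyl-1-methylxanthine (0.5 µM, as the labels give it), with 2 libraries in each of the 6 groups. All groups shared the serum-containing base medium. The labels give no strain, sex or age, and leave unsaid whether the replicates are different rats, different dishes or repeat libraries. The p-values reflect only how far libraries of the same group lie apart. This enters as a single spread per gene, fitted over all 6 groups and drawn toward that of all genes (29.4 prior against 6 residual degrees of freedom). That spread may be technical. Where the replicates of a group lie further apart than in the other groups, its intervals do not show this. No group was kept to day 3 without the induction medium, so added time in culture and induction cannot be told apart. Total counts per library lay between 15105521 and 21484885, and the 6 genes had between 665 and 21922 reads each in a library. Markers of the labelled cell type, of adipocytes and of other muscle cells were not examined here, since identifiers could not be paired with symbols (0 of 32622 matched the rat gene table used).

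Fatty acids are built in the cytosol from acetyl-CoA, which ATP citrate lyase (Acly) releases from citrate. Acetyl-CoA carboxylase (Acaca) turns it into malonyl-CoA, and fatty acid synthase (Fasn) joins these units into palmitate with NADPH, part of which malic enzyme (Me1) supplies. Stearoyl-CoA desaturase (Scd) then places the first double bond in the saturated chain. SREBP-1 is a membrane-bound factor that is cut free when insulin is high and then activates the genes of this pathway, and fat cells raise the pathway as they fill with lipid. Insulin, a part of the induction medium, is a known inducer of lipogenesis in fat cells.

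The desaturase Scd separated the treatments on day 3 more widely than the other 5 genes did. It stood at 1315 ± 26.6 CPM (counts scaled to library size, on TMM-scaled libraries) in C cells, 162 ± 1.65 CPM in HS7 cells and 62.5 ± 1.03 CPM in HS14 cells, while its day 0 levels lay between 203 ± 8.29 and 236 ± 2.61 CPM in the 3 treatments (SD, n = 2 per group). Induced C cells thus had 6.16 times the Scd of uninduced C cells, whereas in HS7 and HS14 cells Scd fell over the induction. Srebf1 was also lower in unloaded cells on day 3, by 2.07-fold in HS7 and 1.73-fold in HS14 cells. Me1 fell over the induction in all 3 treatments, with log2 changes of -0.92 in C, -1.27 in HS7 and -1.75 in HS14 cells. Fasn, Acaca and Acly differed between any of the compared groups by at most 1.32-fold in the fitted values. In bulk RNA, fewer cells expressing a gene and less RNA per cell cannot be told apart.

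**Figure D1:**
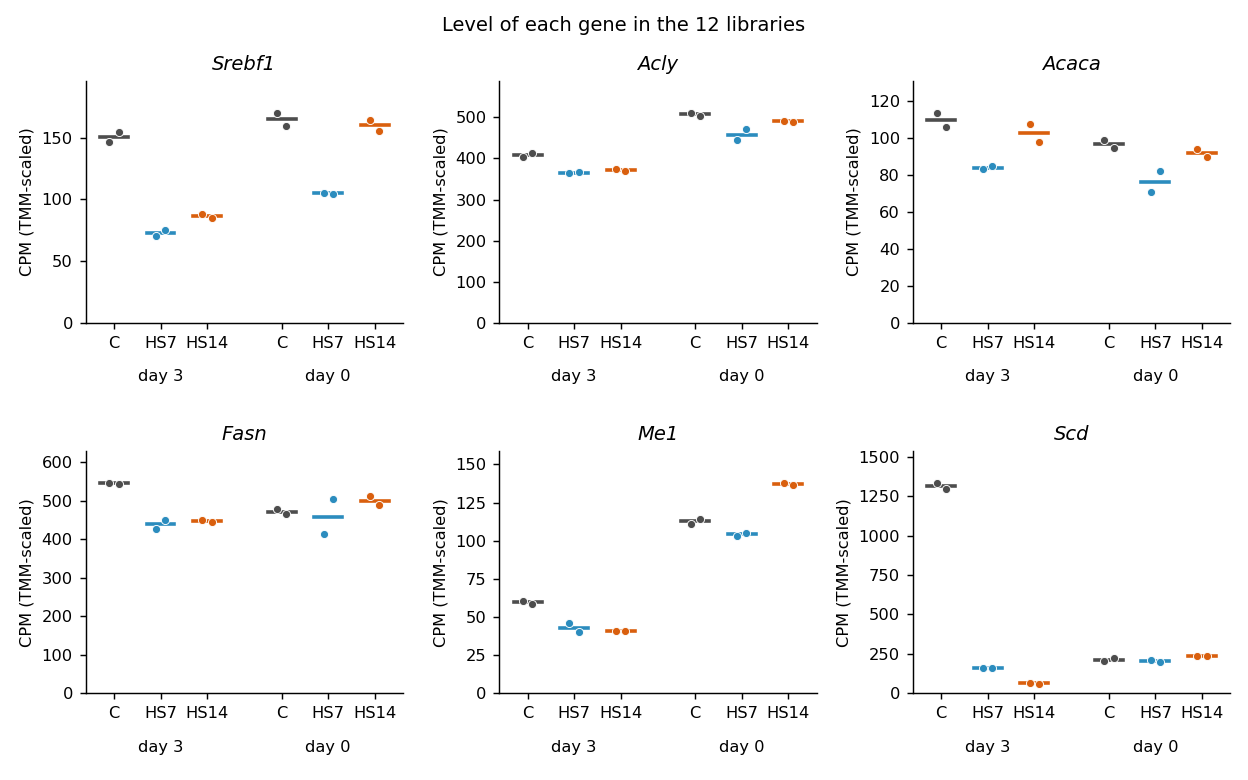
Level of the 6 genes in each of the 12 libraries, in CPM on TMM-scaled libraries on a linear axis from 0 that differs between panels. Points are libraries, bars are group means (n = 2), day 3 stands left of day 0, and C, HS7 and HS14 are control cells and cells after 7 and 14 days of unloading. Scd stands at 1296 and 1334 CPM in induced control cells and at no more than 238 CPM in any other library.

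Srebf1 had 146 and 154 CPM in the C libraries of day 3, 70.2 and 75.1 CPM in those of HS7 and 85.0 and 88.5 CPM in those of HS14. On day 0 it had 160 and 170 CPM in C, 105 and 106 CPM in HS7 and 155 and 165 CPM in HS14 libraries. The HS7 libraries were thus below the C libraries on both days with no overlap, while the HS14 libraries overlapped those of C on day 0 and lay below them on day 3. Over the induction Srebf1 fell in HS7 cells (log2 change -0.53, SE 0.07, edgeR adjusted p = 1.66e-08) and in HS14 cells (-0.88, SE 0.06, edgeR adjusted p = 1.77e-14). In C cells its change of -0.13 did not pass the threshold (SE 0.06, edgeR adjusted p = 0.0723), though it did in a fit of the C libraries alone (0.0483). Against C cells on day 3, Srebf1 was lower in HS7 cells (log2 difference -1.05, SE 0.07, edgeR adjusted p = 1.79e-15) and in HS14 cells (-0.79, SE 0.07, edgeR adjusted p = 2.11e-12). On day 0 it was lower in HS7 cells (-0.65, SE 0.06, edgeR adjusted p = 3.89e-10), and its difference of -0.05 in HS14 cells had a 95% interval of -0.17 to 0.08.

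The Srebf1 identifier sums the reads of transcripts from more than one start, among them SREBP-1a and SREBP-1c, and the table does not separate these. RefSeq (build GRCr8) gives Srebf1 a pair of promoter windows, each reaching from 250 bases before a transcript start to 50 bases from it, and gives Scd one. Windows are shown for Srebf1, which encodes the transcription factor of the set, and for Scd, which separated the treatments most widely on day 3. They run 5′ to 3′ on the gene's strand, with matches to the motifs below in capitals. These coordinates belong to GRCr8, not to Rnor_6.0, the build named for the counts.
Srebf1, chr10:45529115-45529414, minus strand: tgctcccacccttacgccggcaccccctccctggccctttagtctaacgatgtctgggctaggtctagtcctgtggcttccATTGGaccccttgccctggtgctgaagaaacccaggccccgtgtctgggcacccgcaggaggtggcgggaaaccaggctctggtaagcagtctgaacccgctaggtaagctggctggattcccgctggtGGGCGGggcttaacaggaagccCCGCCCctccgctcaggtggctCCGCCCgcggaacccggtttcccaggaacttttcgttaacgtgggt
Srebf1, chr10:45518961-45519260, minus strand: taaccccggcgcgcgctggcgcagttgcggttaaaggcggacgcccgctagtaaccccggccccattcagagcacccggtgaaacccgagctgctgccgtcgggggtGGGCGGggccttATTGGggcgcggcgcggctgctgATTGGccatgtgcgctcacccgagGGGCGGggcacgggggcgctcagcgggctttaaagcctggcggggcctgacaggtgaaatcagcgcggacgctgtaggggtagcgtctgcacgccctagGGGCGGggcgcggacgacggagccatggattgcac
Scd, chr1:253231682-253231981, minus strand: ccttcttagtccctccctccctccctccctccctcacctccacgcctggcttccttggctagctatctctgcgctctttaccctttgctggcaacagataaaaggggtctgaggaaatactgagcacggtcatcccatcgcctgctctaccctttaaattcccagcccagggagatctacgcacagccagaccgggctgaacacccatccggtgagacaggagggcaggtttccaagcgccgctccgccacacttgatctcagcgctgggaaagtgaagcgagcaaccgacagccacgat

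Both strands of each window were searched for 5 motifs. The sterol regulatory element was searched as TCACNCCAC, which 1.12% of 33469 windows of this length held. An E-box form known to bind SREBP-1 was searched as TCACNTGA, which 3.93% of the windows held. The plain E-box, which can lie inside that form, was searched as CACGTG and was in 6.42%. The NF-Y box was searched as CCAAT and was in 37.5% of the windows. The Sp1 box was searched as GGGCGG and was in 33.1%. The first Srebf1 window held 1 NF-Y box and 3 Sp1 boxes, and the second held 2 NF-Y boxes and 3 Sp1 boxes. The Scd window held none of the 5 motifs. Of the other genes, windows were on hand for Acly, with 1 NF-Y box and 3 Sp1 boxes, and for Me1, with 5 Sp1 boxes. A match is a run of letters and not a shown binding site, and sequence outside these windows of 300 bases was not searched. Variant forms of these elements were not searched either, so a missing match does not show that an element is absent.

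Acly, which supplies the acetyl-CoA, fell over the induction in all 3 treatments by similar amounts. Its day 3 levels were 402 and 412 CPM in C, 363 and 367 CPM in HS7 and 370.0 and 373 CPM in HS14 libraries. Its day 0 levels were 503 and 511 CPM in C, 444 and 472 CPM in HS7 and 489 and 492 CPM in HS14 libraries. Every day 3 library was below every day 0 library. The log2 changes were -0.32 in C (edgeR adjusted p = 1.49e-06), -0.33 in HS7 (9.20e-07) and -0.40 in HS14 cells (1.21e-08), each with SE 0.05. Differences between treatments were small: on day 3 the log2 difference from C was -0.16 in HS7 and -0.13 in HS14 cells (SE 0.05 each; edgeR adjusted p = 0.0270 and 0.0403). Each of these 2 calls was lost without any 1 of its 4 libraries, at log2 differences between -0.11 and -0.18 and edgeR adjusted p between 0.0640 and 0.227, and the HS14 call also with the replicate block (0.0531) and without a filter on low counts (0.0705). On day 0 Acly was lower in HS7 than in C cells (log2 difference -0.15, SE 0.05, edgeR adjusted p = 0.0278), a call lost without either C library of day 0 (0.169 and 0.0757) or the first HS7 library of day 0 (0.182), with total-count scaling (0.155), without a filter on low counts (0.0599) and in a fit of the 4 libraries alone (0.161).

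Me1, a source of NADPH, was the enzyme that fell furthest over the induction in C and HS7 cells. It had 58.7 and 60.6 CPM in C, 39.9 and 46.2 CPM in HS7 and 40.6 and 41.1 CPM in HS14 libraries of day 3. On day 0 it had 111 and 114 CPM in C, 103 and 105 CPM in HS7 and 137 and 138 CPM in HS14 libraries. No library of day 3 reached the lowest one of day 0. The log2 change was -0.92 in C cells (SE 0.07, edgeR adjusted p = 1.39e-13), -1.27 in HS7 cells (SE 0.07, 3.19e-17) and -1.75 in HS14 cells (SE 0.07, 1.07e-21). Me1 in HS14 cells was above C cells on day 0 (log2 difference 0.29, SE 0.07, edgeR adjusted p = 0.00186) and below them on day 3 (-0.55, SE 0.08, 5.23e-07). In HS7 cells it was lower on day 3 (-0.47, SE 0.08, 1.46e-05), and on day 0 its difference from C cells was -0.11 with a 95% interval of -0.25 to 0.03.

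Acaca, whose product malonyl-CoA is the unit of chain growth, changed by at most 0.18 on the log2 scale over the induction in any treatment. It had 106 and 114 CPM in C, 83.4 and 84.8 CPM in HS7 and 97.9 and 108 CPM in HS14 libraries of day 3. On day 0 it had 94.97 and 99.0 CPM in C, 70.8 and 82.4 CPM in HS7 and 89.8 and 94.5 CPM in HS14 libraries. The HS7 libraries were the lowest of each day. In C cells Acaca rose by a log2 change of 0.18 (SE 0.07, edgeR adjusted p = 0.0346), a call lost without the second C library of day 0 (0.173), without the first C library of day 3 (0.259) and with DESeq2 (0.0523). The changes in HS7 (0.14) and HS14 cells (0.16) did not pass the threshold (edgeR adjusted p = 0.131 and 0.0601), but passed without the second HS7 library of day 0 (0.25, 0.0134) and without the second HS14 library of day 3 (0.24, 0.0296). Without the first HS7 library of day 0 the HS7 change was 0.03 (0.805), and without the first HS14 library of day 3 the HS14 change was 0.09 (0.421). The HS14 change also passed with halved counts (0.0460) and in a fit of the HS14 libraries alone (0.0113). Acaca was lower in HS7 than in C cells on day 3 (log2 difference -0.39, SE 0.07, edgeR adjusted p = 0.000135) and on day 0 (-0.34, SE 0.07, 0.000591). In HS14 cells the difference from C was -0.10 on day 3 (95% interval -0.24 to 0.05) and -0.07 on day 0 (-0.22 to 0.07). With libraries scaled to the total count, that of day 3 passed the threshold (-0.20, edgeR adjusted p = 0.0278).

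Fasn, the enzyme that makes palmitate, rose over the induction in C cells, fell slightly in HS14 cells and did not pass the test in HS7 cells. It had 544 and 547 CPM in C, 427 and 449.9 CPM in HS7 and 446 and 450.3 CPM in HS14 libraries of day 3. On day 0 it had 465 and 478 CPM in C, 413 and 505 CPM in HS7 and 489 and 512 CPM in HS14 libraries. The C libraries of day 3 were above all others, and the HS7 libraries of day 0 lay apart by 1.22-fold, the widest gap between replicates for any of the 6 genes. The log2 change over the induction was 0.21 in C cells (SE 0.06, edgeR adjusted p = 0.00351), -0.07 in HS7 cells (95% interval -0.19 to 0.06) and -0.16 in HS14 cells (SE 0.06, edgeR adjusted p = 0.0237). The HS14 call was lost without the first HS14 library of day 0 (0.199) or either of day 3 (0.0942 and 0.140), at log2 changes between -0.12 and -0.16. In HS7 cells the change was -0.20 without the first HS7 library of day 0 (0.00128) and 0.08 without the second (0.206), so its sign depended on which was kept. On day 3 Fasn was lower than in C cells in HS7 (log2 difference -0.31, SE 0.06, edgeR adjusted p = 0.000163) and in HS14 cells (-0.28, SE 0.06, 0.000321). On day 0 its differences from C were -0.04 in HS7 cells (95% interval -0.16 to 0.08) and 0.09 in HS14 cells (-0.04 to 0.21). The sign of that of HS7 cells depended on which HS7 library of day 0 was kept: it was -0.19 without the second (edgeR adjusted p = 0.00698) and 0.10 without the first (0.227).

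Scd, the desaturase, had 1334 and 1296 CPM in C, 163 and 161 CPM in HS7 and 63.2 and 61.8 CPM in HS14 libraries of day 3. On day 0 it had 203 and 224 CPM in C, 209 and 197 CPM in HS7 and 234 and 238 CPM in HS14 libraries. The day 3 groups stood far apart from each other, while on day 0 the HS7 and C libraries overlapped and the HS14 libraries lay just above both. The same reads as raw counts were 20428 and 21922 in C, 3029 and 2681 in HS7 and 1121 and 1159 in HS14 libraries of day 3. Over the induction Scd rose in C cells (log2 change 2.62, SE 0.06, edgeR adjusted p = 9.45e-31) and fell in HS7 cells (-0.33, SE 0.06, 6.44e-06) and in HS14 cells (-1.92, SE 0.06, 9.48e-26). By fitted log2 change its rise in C cells was number 281 of 13215 genes from the top.

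Against C cells on day 3, Scd was 8.12-fold lower in HS7 (log2 difference -3.02, SE 0.06, edgeR adjusted p = 2.30e-31) and 21.0-fold lower in HS14 cells (-4.39, SE 0.06, 5.83e-36). These differences were number 97 and number 68 of 13215 from the most negative. On day 0 the log2 difference from C was -0.07 in HS7 cells (95% interval -0.18 to 0.04) and 0.14 in HS14 cells (0.03 to 0.25, edgeR adjusted p = 0.0707). That of HS14 cells passed the threshold with DESeq2 (0.0469), in a fit of the 4 libraries alone (0.0498) and without the second C library of day 0 (0.0208). The Scd calls of induction and of day 3 held in all 12 alternatives tried for each. The rat genome holds a close paralog, Scd2, and the sources used here do not say how reads shared between the genes were counted.

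Counted over the 6 genes, calls over the induction were mixed in C cells and all downward in unloaded cells. In C cells 3 of the 6 genes rose (Scd, Fasn, Acaca), where 25.8% of all tested genes rose, 2 fell (Me1, Acly), where 26.8% fell, and 1 did not pass. In HS7 cells none rose, where 3275 of the 13215 tested genes rose. In these cells 4 of the 6 fell (Me1, Srebf1, Scd, Acly), where 26.9% of all genes fell. In HS14 cells none rose, where 3662 of the 13215 rose, and 5 fell, all but Acaca, where 28.1% of all genes fell. The median log2 change of the 6 was 0.02 in C, -0.33 in HS7 and -0.64 in HS14 cells, with medians over all genes of 0.00, -0.01 and 0.01. Changes of at least 2-fold were those of Scd in C cells, Me1 in HS7 cells, and Scd and Me1 in HS14 cells, where 17%, 15.8% and 18.2% of all genes passed with such a change.

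**Figure D2:**
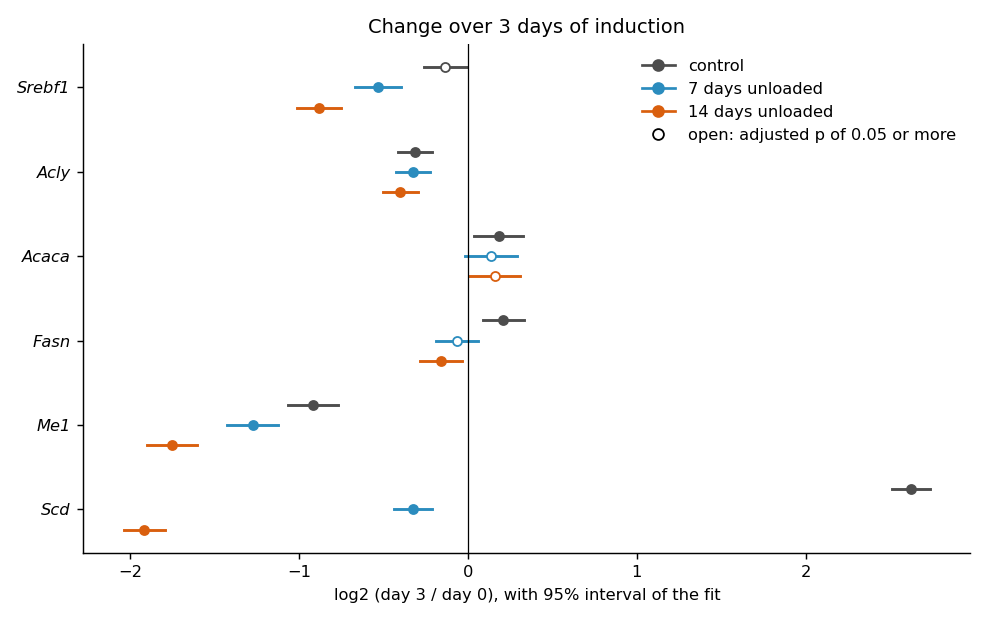
Fitted log2 change from day 0 to day 3 of induction for each gene in control cells, cells after 7 days and cells after 14 days of unloading, with its 95% interval in the edgeR fit of all 12 libraries. Filled points passed an adjusted p of 0.05. Scd lies at 2.62 in control cells and at -0.33 and -1.92 in unloaded cells.

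The difference between the responses was tested directly. The day 3 minus day 0 change was more negative in HS7 than in C cells for 4 of the 6 genes, where 5.68% of all genes were more negative, and in HS14 than in C cells for the same 4, where 10.9% were. These comparisons share the C libraries. For Scd the log2 difference of responses was -2.95 (SE 0.08, edgeR adjusted p = 5.81e-26) in HS7 and -4.54 (SE 0.08, 6.57e-32) in HS14 cells. For Srebf1 it was -0.40 (SE 0.09, edgeR adjusted p = 0.00238) and -0.75 (SE 0.09, 3.79e-08), and for Me1 -0.36 (SE 0.10, 0.0196) and -0.83 (SE 0.10, 6.10e-08). For Fasn it was -0.28 (SE 0.09, edgeR adjusted p = 0.0301) and -0.37 (SE 0.09, 0.00124). Acly and Acaca did not pass in either, with 95% intervals of -0.15 to 0.13 and -0.26 to 0.17 for HS7 and of -0.23 to 0.06 and -0.23 to 0.19 for HS14 cells.

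The HS7 calls of response for Fasn and Me1 did not hold in every alternative, and both were lost in a fit of the C and HS7 libraries alone (edgeR adjusted p = 0.09997 and 0.0639). That of Fasn was lost without the second C library of day 0 (edgeR adjusted p = 0.0978), either C library of day 3 (0.0952 and 0.0933), the second HS7 library of day 0 (0.273) or the first of day 3 (0.102), and with DESeq2 (0.0617). Its log2 difference was -0.13 without the second HS7 library of day 0 and between -0.25 and -0.28 in the other lost calls, against -0.28 with all libraries. That of Me1 was lost without the first C library of day 0 (0.0529), the first C library of day 3 (0.0871) or the second HS7 library of day 3 (0.122), at log2 differences of -0.35, -0.34 and -0.27, against -0.36. The set's count of 4 for HS7 cells was 2 (Scd and Srebf1) without the first C library of day 3. Of all genes called for a difference between the HS14 and C responses, 36.9% were positive with total-count scaling, against 50.2% with TMM.

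On day 3 all 6 genes were lower in HS7 than in C cells, where 7.43% of all genes were lower. In HS14 cells 5 of the 6, all but Acaca, were lower than in C cells, where 15.3% of all genes were. The Acly call in each of these counts did not hold in every alternative. The median log2 difference of the 6 was -0.43 in HS7 and -0.41 in HS14 cells, against 0.00 and 0.02 over all genes. On day 0, 3 of the 6 were lower in HS7 cells (Srebf1, Acaca, Acly), where 11.3% of all genes were lower. Here too the Acly call did not hold in every alternative. In HS14 cells 1 was higher (Me1), where 7.85% of all genes were higher. None of the 6 passed as lower, where 1175 of the 13215 tested genes did. With total-count scaling, of the genes called over the whole table, 30.2% were higher in HS14 cells on day 3, against 51.2% with TMM, and 62.8% were higher in HS7 cells on day 0, against 50.8%.

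**Figure D3:**
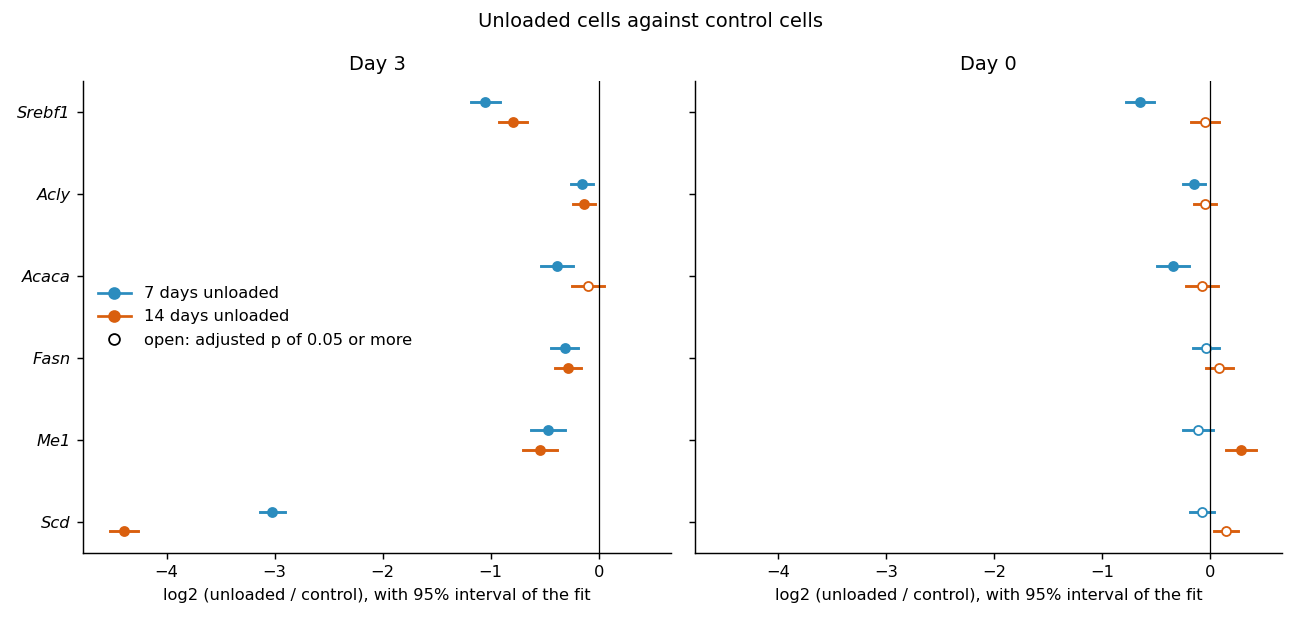
Fitted log2 difference of each gene between unloaded and control cells on day 3 (left) and day 0 (right), after 7 and 14 days of unloading, with its 95% interval in the edgeR fit. Filled points passed an adjusted p of 0.05. On day 3 Scd lies at -3.02 and -4.39, and on day 0 none of the 6 genes differs by 2-fold.

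The unloading periods were also set against each other. On day 3, Scd was 2.59-fold lower in HS14 than in HS7 cells (log2 difference -1.37, SE 0.06, edgeR adjusted p = 1.00e-19). Srebf1 (0.26, SE 0.07, 0.00452) and Acaca (0.29, SE 0.07, 0.00304) were higher in HS14 cells, so that 3 of the 6 passed, where 22.6% of all genes did. The Srebf1 call was lost without the first HS14 library (0.0625) or the first HS7 library of day 3 (0.0681), that of Acaca without the first HS14 library (0.0938), and both with total-count scaling (0.123 and 0.0709). On day 0 4 of the 6 were higher in HS14 than in HS7 cells, where 5.47% of all genes were: Srebf1 (0.60, SE 0.06, edgeR adjusted p = 4.72e-09), Me1 (0.40, SE 0.07, 5.28e-05), Acaca (0.27, SE 0.07, 0.0125) and Scd (0.22, SE 0.06, 0.00638).

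Some of these day 0 calls were lost under another scaling or without 1 library. With total-count scaling Acaca (edgeR adjusted p = 0.0949) and Scd (0.117) no longer passed on day 0. Acaca was also lost without the first HS14 library (0.23, adjusted p = 0.158) or the first HS7 library of day 0 (0.16, 0.251), and Scd without the second HS14 library (0.20, 0.0857). Fasn, at 0.12 with 95% interval 0.00 to 0.25, passed without the second HS7 library (0.28, edgeR adjusted p = 0.000173) and was at -0.01 without the first (0.950), so that its sign depended on which HS7 library was kept. Total-count scaling also moved the share of all called genes that were higher in HS14 than in HS7 cells to 20.6% on day 0, against 46.6% with TMM, and to 22.1% on day 3, against 51.2%.

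The induction response of HS14 cells differed from that of HS7 cells in 3 of the 6 genes, all more negative, where 4.44% of all genes were. For Scd the log2 difference was -1.59 (SE 0.08, edgeR adjusted p = 7.31e-17). For Me1 it was -0.48 (SE 0.10, 0.00194) and for Srebf1 -0.35 (SE 0.09, 0.0126). Neither of these genes passed as lower in HS14 than in HS7 cells on day 3. Me1 differed between them by 0.40 on day 0 and by -0.08 on day 3 (edgeR adjusted p = 0.531). Srebf1 was higher in HS14 cells on both days, by 0.60 on day 0 and 0.26 on day 3. The Me1 call of response was lost without the first HS7 library of day 3, at a log2 difference of -0.35. That of Srebf1 was lost without the first HS14 library of day 0 (0.1097), the second of day 3 (0.102) or the second HS7 library of day 3 (0.0808). Fasn passed without the second HS7 library of day 0 (-0.25, edgeR adjusted p = 0.0183) and was at 0.04 without the first (0.783).

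By mean level, the groups of each gene fell in different orders. Scd was highest in C cells of day 3, followed by HS14, C and HS7 cells of day 0 and then by HS7 and HS14 cells of day 3. Its neighbours C and HS7 of day 0 overlapped, HS14 and C of day 0 did not pass the test, and the steps down to day 3 of HS7 and of HS14 both passed. Srebf1 was highest in C and HS14 cells of day 0, which overlapped, then in C cells of day 3, HS7 cells of day 0 and HS14 and HS7 cells of day 3, with no overlap between these neighbours. Me1 and Acly had all 3 day 0 groups above all 3 day 3 groups. Fasn and Acaca had C cells of day 3 on top, with Fasn lowest in HS7 cells of day 3 and Acaca lowest in HS7 cells of day 0. For Acaca the C and HS14 libraries of day 3 overlapped, and so did those of HS14 of day 3 and C of day 0. Its lowest neighbours, HS7 of day 3 and of day 0, did not pass the test (edgeR adjusted p = 0.131). Fasn in the other 4 groups below C of day 3 and HS14 of day 0 ran so close that the libraries of each neighbouring pair overlapped.

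The ratio of reads within a library does not depend on how libraries are scaled. Per 100 Fasn reads there were 244 and 238 Scd reads in the C libraries of day 3, 38.2 and 35.8 in those of HS7 and 14.0 and 13.9 in those of HS14. On day 0 the ratio was 42.5 and 48.3 in C, 50.6 and 39.1 in HS7 and 45.7 and 48.7 in HS14 libraries. Both day 3 libraries were above both of day 0 in C cells and below them in HS7 and HS14 cells, and the day 0 libraries of the 3 treatments overlapped. Srebf1 had 26.8 and 28.4 reads per 100 Fasn reads in the C libraries of day 3, 16.4 and 16.7 in those of HS7 and 19.6 and 19.1 in those of HS14. On day 0 there were 35.6 and 34.4 in C, 25.6 and 20.8 in HS7 and 32.2 and 31.7 in HS14 libraries. In each treatment both libraries of day 3 were below both of day 0. In C cells Fasn itself rose over the induction (log2 change 0.21), while the Srebf1 change of -0.13 did not pass the threshold. The lower ratio there is thus not a fall of Srebf1 alone. These ratios compare the same pair of genes between libraries and, without transcript lengths, say nothing of which gene had more transcripts.

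**Figure D4:**
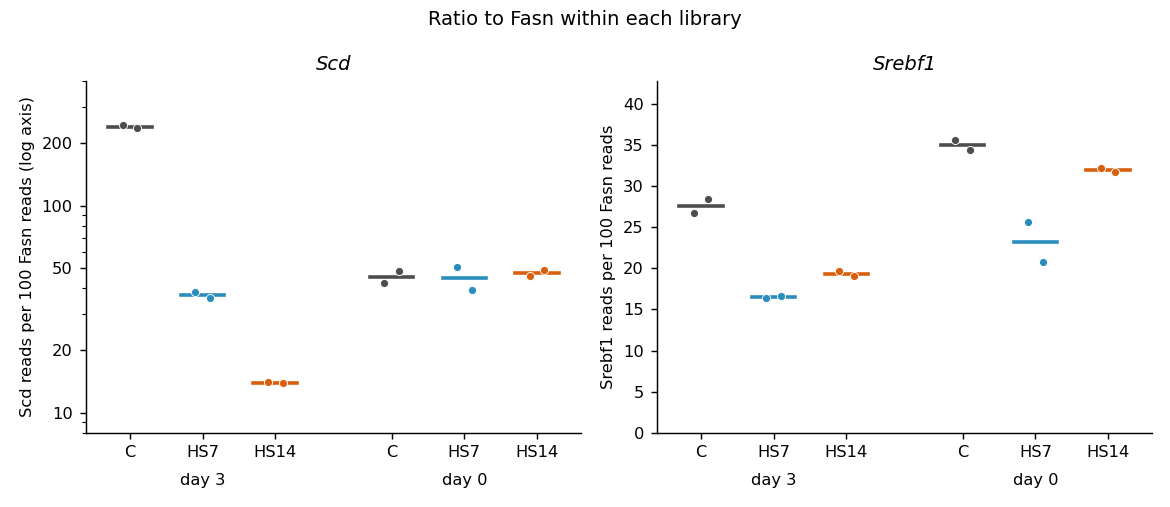
Reads of Scd (left, log axis) and of Srebf1 (right, linear axis from 0) per 100 reads of Fasn in the same library, for C, HS7 and HS14 cells on day 3 and day 0; points are libraries and bars are means. Scd stands at 244 and 238 in induced control cells and at 14.0 and 13.9 in induced cells after 14 days of unloading.

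Together the 6 genes took 0.264% and 0.261% of all counts in the C libraries of day 3, 0.118% and 0.120% in those of HS7 and 0.106% and 0.104% in those of HS14. On day 0 they took 0.158% and 0.157% in C, 0.141% and 0.152% in HS7 and 0.160% and 0.157% in HS14 libraries. The sum was above day 0 in induced C cells and below it in both induced unloaded groups. Without Scd, the other 5 genes summed to 1270 and 1275 CPM in the C libraries of day 3, against 1369 and 1337 CPM in those of day 0, so the higher sum of induced C cells was that of Scd. The 5 summed to 990.3 and 1016 CPM in HS7 libraries of day 3, against 1137 and 1269 CPM on day 0. In HS14 libraries they summed to 1060.4 and 1040 CPM on day 3, against 1401 and 1359 CPM on day 0.

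The genes whose log2 CPM ran most alike with each of the 6 over the 12 libraries were sought among 9872 others with a mean of at least 5 CPM; the correlations are descriptions, since libraries of one group cluster together. The nearest to Scd was ENSRNOG00000014508 (Pearson r = 0.99), with 57.7 ± 4.44 CPM in C, 3.14 ± 0.283 CPM in HS7 and 0.608 ± 0.257 CPM in HS14 cells of day 3 and between 4.12 and 6.32 CPM on day 0 (SD, n = 2). Next was ENSRNOG00000010284 (r = 0.98), with 40.0 ± 0.971 CPM in C, 17.0 ± 0.430 CPM in HS7 and 12.5 ± 0.887 CPM in HS14 cells of day 3. Both rose in C cells over the induction and were lower in both unloaded groups on day 3, as Scd was. The nearest to Me1 was ENSRNOG00000056836 (r = 0.99) and the nearest to Srebf1 ENSRNOG00000021237 (r = 0.98); of these the first fell over the induction in all 3 treatments and the other in HS7 and HS14 cells. The closest correlation was 0.99 for Acly, 0.95 for Acaca and 0.90 for Fasn, and none of the 18 genes nearest to the 6 was itself one of them. The table and the gene references used here give these identifiers no names.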

How the data were processed

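The deposited table holds raw counts per Ensembl rat gene in 12 columns, 1 per library, made by the authors from stranded poly(A) libraries (TruSeq, per the labels' protocols). Per the submitters' processing notes, which list tools without roles, these were STAR 2.7, featureCounts 1.6.4, FastQC 0.11.9 and DESeq2, with Rnor_6.0 as the build. Strand setting, annotation release and treatment of read pairs are not in these notes. Small counts were mostly even (68.3% to 70.6% of counts from 1 to 20), so halved counts were tried.

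Genes kept by filterByExpr (13215) were scaled by TMM and tested with the quasi-likelihood test of edgeR 4.0.16 (R 4.3.3): 6 group means, 12 libraries, 6 residual degrees of freedom, 9 comparisons of groups and 3 of responses, two-sided, Benjamini-Hochberg adjusted over all genes tested at 0.05. Every adjusted p comes from this test unless DESeq2 (1.42.0) is named. The spread of each gene was drawn toward that of all genes (29.4 prior degrees of freedom). SEs were derived from the F statistic. Log2 CPM for correlations used a prior count of 2. The test was checked on simulated counts. Replicates differed by more than sampling noise (chi-square per degree of freedom 2.69 to 7.36), most in HS7 cells of day 0.

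Alternatives were other scalings, filters, tests and sets of libraries, and a replicate block. The 6 genes are described in full; other identifiers were named only by likeness to them (highest Pearson r among genes with a mean of at least 5 CPM, 3 per member). Promoter windows came from RefSeq by symbol, for 4 of the 6. The members, gene lists and tests were chosen with earlier results of these data known. Lists of further pathway genes and cell type markers could not be used, because no identifier matched a symbol.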

Additional observations from a re-analysis of the deposited data

Results flagged for a closer look

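The results here stand out because the test of the difference between responses to induction passed (edgeR, adjusted over 13215 genes). Each value is the log2 change from day 0 to day 3 in the first-named cells minus that in the others. Against control cells, the HS7 response was more negative for Scd (-2.95), Srebf1 (-0.40), Me1 (-0.36) and Fasn (-0.28). The HS14 response was more negative than that of control cells for Scd (-4.54), Me1 (-0.83), Srebf1 (-0.75) and Fasn (-0.37). The HS14 response was more negative than the HS7 response for Scd (-1.59), Me1 (-0.48) and Srebf1 (-0.35). Of these, Me1 and Srebf1 were higher in HS14 than in HS7 cells on day 0 (0.40 and 0.60) and did not pass as lower on day 3 (-0.08 and 0.26). For Scd the sign of the response itself differed: positive in control cells and negative in both unloaded groups. For Me1 all 3 responses were negative, and part of the HS14 difference was already there on day 0, when Me1 was higher in HS14 than in control cells. These comparisons share libraries, so they are not independent. With 2 libraries per group no single library could be judged as standing apart.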

How the results depend on the processing

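Of 936 recomputed log2 changes of the 6 genes, 876 stayed on their side of the threshold, 47 lost it, 13 gained it and 0 of those called changed sign. The number of the 6 genes past the threshold moved by over 1.5 times in 4 comparisons. For HS14 against C on day 0 it was 2, against 1, with DESeq2 and in a fit of the compared groups only, and 1 to 2 without single libraries (2 without the second C library of day 0). For HS14 against HS7 it was 2, against 4, on day 0 and 1, against 3, on day 3 with total-count scaling, and on day 3 it was 1 to 3 without single libraries (1 without the first HS14 library). For the HS7 minus C response it was 2, against 4, in a fit of the compared groups only, and 2 to 4 without single libraries (2 without the first C library of day 3). Over all genes, leaving out 1 library gave 862 to 1695 calls of HS14 against HS7 on day 0, against 1550 (862 without the first and 887 without the second HS14 library). On day 3 it gave 1700 to 2558, against 2988 (1700 without the first HS14 and 1848 without the first HS7 library). For the HS14 minus HS7 response it gave 646 to 1530, against 1134, with 646 and 672 without the first HS14 and the first HS7 library of day 3, and 737 without the second HS14 library of day 0. A library left alone in its group was assumed to vary like the other groups. Apart from the smaller number of libraries, the cause was not tested.

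Scaling to total counts moved the median gene by -0.10 (HS14 against C, day 3) and by -0.11 (HS14 against HS7, day 3) on the log2 scale, so the scaling matters most for the small differences of these comparisons. No shared effect of the replicate number was seen: deviations of same-numbered libraries correlated between -0.12 and 0.07 over 15 pairs of groups. This cannot show whether same-numbered libraries came from the same rat or preparation. With the replicate block, 4 of the 6 genes passed for HS14 against C on day 3, against 5, and 4005 of all genes, against 4132. With 2 libraries per group, the intervals of the fit set which small changes could be told from 0.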
